A study of Homo sapiens with 2 samples.

Results

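The genes of the desmosome and the corneodesmosome were compared between Ca9-22 cells that carried the long noncoding RNA DLEU1 on a lentiviral vector and Ca9-22 cells with a control vector. The 10 genes were the desmogleins DSG1, DSG2 and DSG3, the desmocollins DSC1, DSC2 and DSC3, the plakophilins PKP1 and PKP3, desmoplakin (DSP) and corneodesmosin (CDSN). They were read through all non-control probes whose gene name in the array files was 1 of these symbols, which gave 14 probes for 10 of the 43317 gene names on the array. The Ca9-22 line comes from an oral squamous cell carcinoma (OSCC). Both cultures were selected with blasticidin for 2 weeks at the concentration the labels give as 6 mg/ml, both carried a lentiviral vector, and total RNA of each was hybridised to 1 Agilent 1-colour expression array. With 1 array per vector no test was possible and no p-value is given, and differences between the vectors cannot be told apart from differences between any pair of cultures.

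Desmosomes are the junctions that tie the keratin filaments of neighbouring epithelial cells together. Desmogleins and desmocollins are cadherins that span the membrane and bind their partners on the next cell. Inside the cell, plakoglobin and the plakophilins link the cadherin tails to desmoplakin, which holds the keratin filaments. In stratified epithelium DSG2 belongs mainly to the basal layer, DSG3, DSC2 and DSC3 to the lower layers, and DSG1, DSC1 and PKP1 to the suprabasal layers. In the outermost layers of cornifying epithelium corneodesmosin is added on the outside, and proteases later cut the junction so that cells can be shed.

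The labelled cell type was checked first. All 8 listed epithelial markers, among them KRT5, KRT14, TP63 and CDH1, were well above background on both arrays. Their summed processed signal was 93600 in the control culture and 235000 in the DLEU1 culture, and 4 of the 8 were at least 2-fold higher in the latter, KRT5 by 2.10, KRT14 by 2.85, KRT17 by 3.09 and CDH1 by 1.04 on the log2 scale. The other 4 lay within 2-fold, TP63 at 0.96, ITGB4 at -0.09, COL17A1 at -0.24 and EPCAM at -0.78. Of 8 fibroblast and mesenchymal markers, 2 were detected in the control culture and 3 in the DLEU1 culture, and their summed processed signal was 381 and 5300, nearly all of it COL1A1, which was 15.9-fold higher with the DLEU1 vector. COL1A2, COL3A1, PDGFRA, DCN and THY1 were not well above background on either array. The only probe of COL1A2 lies, like that of CDH1, in a strip of dim spots on the DLEU1 vector array, described below. Of 6 leukocyte markers with a probe, 5 were detected on both arrays with a summed signal of 17300 and 14000, most of it LCP1, and CD3E was not detected. Of 4 endothelial markers PECAM1 and KDR were not detected, and the summed signal was 111 and 652. VWF differed by 3.70 at its brightest probe and by -0.07 at another, and CDH5 by -0.59. The part of these genes in the results below was not tested. In RNA from a whole culture, fewer cells of a type and less RNA per cell cannot be told apart. The DLEU1 probe A_23_P151337 was 6.67-fold brighter with the DLEU1 vector, and the other DLEU1 probes 1.81-fold and 1.46-fold.

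Levels are given on a log2 scale on which the 75th percentile of each array is 0, and differences are DLEU1 vector minus control vector. A level belongs to 1 probe and was not compared between probes. A probe is called detected where the scanner software marked it as well above background. The software also gives each spot an error, close to 10% of a bright signal in each of these probes, and the error printed with a difference is the one that follows from the errors of both spots. It covers the measurement of the spot only. Among 282 probes printed in several spots the SD of a difference between spots was 0.0778, and between different probes of a gene it was 0.47. None of these holds the variation between cultures.

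Of 58201 probes, 47.6% were detected in the control culture and 48.1% in the DLEU1 culture, and 0 spots were saturated. A strip of the DLEU1 vector array, columns 36 to 39, held dim spots: 12.9% of its spots that had signal were at least 4-fold lower there, against 3.15% elsewhere. Of the 14 member probes 0 lay in it. The median difference of the 100 nearest detected spots was between -0.23 and 0.04 at every member probe, far below the differences of the members past 2-fold. Spike-in probes were brighter on the DLEU1 vector array by a median of 0.43 before scaling, and setting them equal shifted the median of all genes by -0.46.

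Most desmosomal genes were higher with the DLEU1 vector. Of the 7 members detected on both arrays, 5 were at least 2-fold higher (DSG3, DSC2, DSC3, PKP1 and DSP), 0 were at least 2-fold lower, and DSG2 and PKP3 lay within 2-fold. Over all 20246 gene names detected on both arrays, 9.18% were higher by 2-fold or more and 9.78% lower by as much. The other 3 members were not detected on both: CDSN and DSC1 passed detection with the DLEU1 vector only, and DSG1 on neither array. With lower bounds for genes detected on 1 array, 7 of 9 members were at least 2-fold higher, beside 10.2% of 22543 gene names, and 0 of 9 at least 2-fold lower, beside 10.0% of gene names. A gene detected only where it is bright had to differ, so CDSN and DSC1 are described and not counted as support. The median log2 difference of the 7 members was 1.67, a 3.19-fold difference, beside a median of -0.07 and an SD of 0.898 over all genes detected on both arrays. With spike-in scaling 4 of the 7 remained at least 2-fold higher (DSG3, DSC2, DSC3 and PKP1), and the shares over all genes detected on both arrays became 4.56% higher and 24.1% lower.

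**Figure D1:**
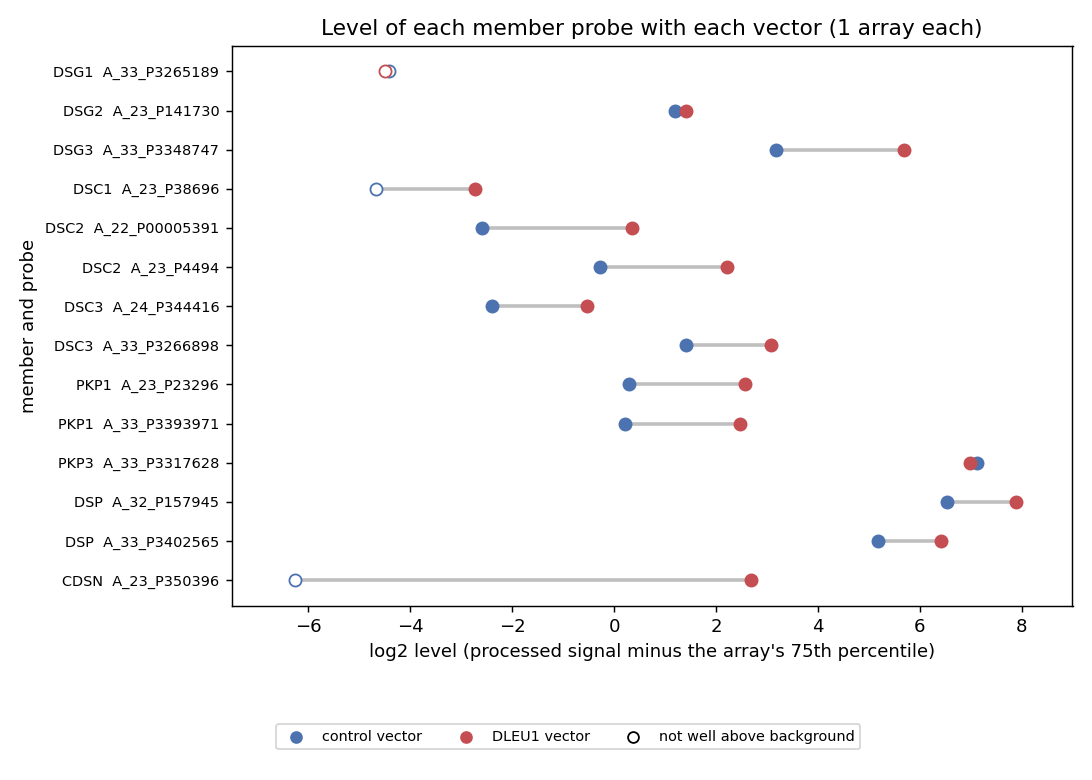
Log2 level of each of the 14 member probes with the control vector (blue) and the DLEU1 vector (red), 1 array each; open circles mark probes not well above background, and a grey line joins the levels of a probe. Both levels of the DSG1, DSG2 and PKP3 probes nearly coincide, while the probes of DSG3, DSC1, DSC2, DSC3, PKP1, DSP and CDSN lie further right with the DLEU1 vector.

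The sequences of some of the probes are shown because they carry the measurements of the desmosomal cadherins, desmoplakin and plakophilin 1, and because 2 probes of a gene can read different parts of its transcripts. They are printed 5′ to 3′ as the array files hold them, and positions are on hg19. The probe of DSC2 (transcript NM_024422, chromosome 18, 28650796 to 28651609, minus strand) spans 814 bases of genome with 60 bases of sequence, so it crosses a splice junction. Those of DSC3 (NM_001941, chr18:28576935-28576994, minus strand) and DSG2 (NM_001943, chr18:29126460-29126519, plus strand) lie in 1 block each. The DSP probe (NM_004415, chr6:7586052-7586111, plus strand) and the PKP1 probe (NM_000299, chr1:201297905-201297964, plus strand) each end with a stop triplet, in capitals, that closes an otherwise open reading frame. Whether the other probes lie in coding or untranslated exons was not annotated here.
DSC2 A_23_P4494: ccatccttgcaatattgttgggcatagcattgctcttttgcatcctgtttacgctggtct
DSC3 A_33_P3266898: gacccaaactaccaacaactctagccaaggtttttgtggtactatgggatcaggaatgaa
DSG2 A_23_P141730: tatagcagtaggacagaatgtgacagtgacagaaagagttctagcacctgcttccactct
DSP A_33_P3402565: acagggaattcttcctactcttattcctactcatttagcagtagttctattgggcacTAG
PKP1 A_33_P3393971: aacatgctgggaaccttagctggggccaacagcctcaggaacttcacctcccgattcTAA

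The desmogleins did not behave alike. DSG3, the target of autoantibodies in pemphigus vulgaris, had a processed signal of 2199 ± 220 (software error) in the control culture and 12222 ± 1220 in the DLEU1 culture. Its log2 level was 3.18 and 5.69, a difference of 2.51 ± 0.204 or 5.70-fold, larger than that of 98.9% of the genes detected on both arrays. The signal with the DLEU1 vector lay far outside the software error of the signal with the control vector. The DSG3 probe, A_33_P3348747, lies at chr18:29058356-29058415.

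DSG2, the desmoglein also found in simple epithelia and heart, had a signal of 555 ± 55.6 in the control culture and 626 ± 62.7 in the DLEU1 culture. Its log2 difference was 0.21 ± 0.204, or 1.16-fold, which is about the size of the software error. It was the only member besides PKP3 whose sign depended on the scaling, since setting the spike-in probes equal turned it to -0.25. The difference of DSG3 exceeded that of DSG2 by 2.30 ± 0.288, and by 2.25 to 2.45 over the settings in which both had a value.

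DSG1, a major desmoglein of the suprabasal layers and the target of pemphigus foliaceus, was not well above background on either array. Its processed signal was 11.3 ± 3.87 with the control vector against 10.4 ± 3.86 with the DLEU1 vector, so both signals lay within the software error of each other. The lowest signal of any detected probe was 14.2 in the control culture and 14.3 in the DLEU1 culture. No fold is given for DSG1, and a difference in DSG1 was not detectable at this brightness.

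All 3 desmocollins had a higher signal with the DLEU1 vector. DSC2, the desmocollin found in most desmosome-bearing tissues, had a signal of 200 ± 20.3 in the control culture and 1089 ± 109 in the DLEU1 culture at the probe A_23_P4494. Its log2 level was -0.28 and 2.21, a difference of 2.49 ± 0.206 or 5.60-fold. A second DSC2 probe, A_22_P00005391 (ENST00000280904, chr18:28638806-28638865), went from 39.9 ± 5.36 to 303 ± 30.6, a log2 difference of 2.96 ± 0.242 or 7.79-fold. These DSC2 probes differed from each other by 0.477, about the SD of 0.47 between probes of a gene.

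DSC3, a desmocollin of the lower layers of stratified epithelium, had a signal of 645 ± 64.6 in the control culture and 2003 ± 200 in the DLEU1 culture at the probe A_33_P3266898. Its log2 level was 1.41 and 3.08, a difference of 1.67 ± 0.204 or 3.19-fold. The other DSC3 probe, A_24_P344416 (NM_024423, chr18:28571035-28571094), is assigned to another transcript accession of the gene and went from 46.2 ± 5.69 to 163 ± 16.7, a difference of 1.86 ± 0.231 or 3.63-fold. The differences of these DSC3 probes were 0.19 apart, and whether either probe reads 1 isoform only was not annotated here.

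The log2 difference of DSC2 was larger than that of DSC3 by 0.81 ± 0.290, and by 0.53 to 0.96 over the settings. Without replicate cultures this gap between the 2 genes could not be tested. DSC1, the desmocollin of the upper layers, had a signal of 9.51 ± 3.36 with the control vector, not well above background, and of 35.9 ± 4.85 with the DLEU1 vector. It was at least 2.60-fold higher, measured against the lowest detected level of the control vector array. This call rested on a dim probe (A_23_P38696, chr18:28709478-28709537): the log2 bound fell from 1.38 to 0.91 with spike-in scaling and to 0.46 with the normexp background correction, and at a minimum signal of 100 DSC1 was not detected at all.

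**Figure D2:**
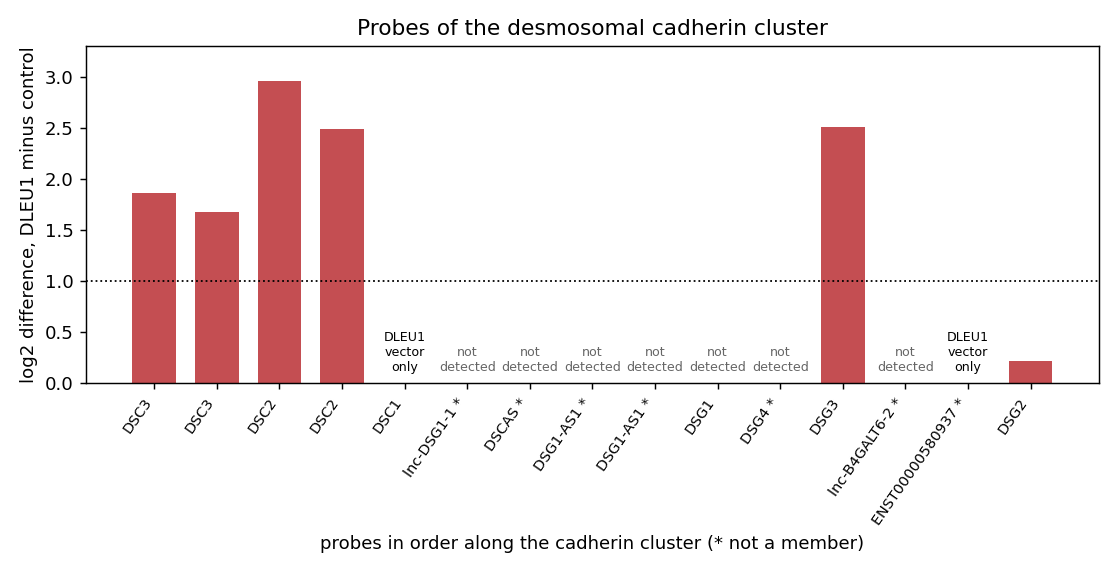
Log2 difference (bars) of the 15 probes inside the desmosomal cadherin cluster, in their order along the chromosome, with the probes of genes that are not members marked by an asterisk; the dotted line marks 2-fold. The DSC3, DSC2 and DSG3 probes stand above the line, the DSG2 probe stands at 0.21, DSC1 and ENST00000580937 passed detection with the DLEU1 vector only, and the probes between DSC1 and DSG3 were not detected.

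The 6 member cadherins lie in 1 cluster on chromosome 18, the desmocollins on the minus strand and the desmogleins on the plus strand, and their probes spanned 555485 bases. The other genes within this cluster were read beside them. The window held 15 probes, of which 8 belonged to members, and among the other 7 probes 0 were detected on both arrays, so a difference could be measured for members only. DSG4, the desmoglein of hair, the antisense RNAs DSCAS and DSG1-AS1 and the noncoding transcripts lnc-DSG1-1 and lnc-B4GALT6-2 were not detected on either array. The transcript ENST00000580937, whose probe lies between those of DSG3 and DSG2 on the opposite strand, was detected with the DLEU1 vector only and was dim, with a log2 level of -4.29 and -3.58. DSG1 and DSG4, between the higher genes DSC2 and DSG3, therefore gave no signal that could be called on either array.

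Outside the cluster, TRAPPC8 differed by -0.42 and CDH2 (N-cadherin) by 0.41, with another CDH2 probe at -0.27. B4GALT6 was detected with the control vector only, at least 1.22-fold higher there, and DSG2-AS1, TTR and CHST9 were not detected. Of the 8 listed neighbours and antisense RNAs of the cluster, 0 of the 2 detected on both arrays were 2-fold higher or lower. Over all gene names detected on both arrays 9.18% were higher and 9.78% lower by as much, so 2 genes are too few to differ from these shares.

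The promoters of the desmogleins are shown because DSG3 and DSG2, next to each other on the same strand, had such unequal differences. The sequences are the 250 bases before the start of each gene, 5′ to 3′ on the strand of the gene, from RefSeq (GRCh38.p14), whose table held windows for 9 of the 10 members. PKP3 had none. DSG1 and DSG3 share an identical run of 20 bases, in capitals, which begins 120 bases before the start of DSG1 and 78 bases before that of DSG3. Among all 35116 windows of this length in the table the run was found in these 2 only. The longest run shared by any other of the 44 pairs of windows of different members was 12 bases. In the DSG2 window the capitals mark the GC box CCGCCC, read on the opposite strand.
DSG1 chr18:31317910-31318159 plus strand: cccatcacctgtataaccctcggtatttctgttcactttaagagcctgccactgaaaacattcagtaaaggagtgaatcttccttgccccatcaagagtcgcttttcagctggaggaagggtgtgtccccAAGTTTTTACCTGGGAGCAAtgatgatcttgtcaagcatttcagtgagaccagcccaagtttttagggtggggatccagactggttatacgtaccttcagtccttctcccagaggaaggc
DSG3 chr18:31447491-31447740 plus strand: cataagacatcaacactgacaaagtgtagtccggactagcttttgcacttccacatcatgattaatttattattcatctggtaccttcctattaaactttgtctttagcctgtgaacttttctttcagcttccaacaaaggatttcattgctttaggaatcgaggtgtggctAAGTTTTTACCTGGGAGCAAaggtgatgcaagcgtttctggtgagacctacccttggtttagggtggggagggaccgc
DSG2 chr18:31497927-31498176 plus strand: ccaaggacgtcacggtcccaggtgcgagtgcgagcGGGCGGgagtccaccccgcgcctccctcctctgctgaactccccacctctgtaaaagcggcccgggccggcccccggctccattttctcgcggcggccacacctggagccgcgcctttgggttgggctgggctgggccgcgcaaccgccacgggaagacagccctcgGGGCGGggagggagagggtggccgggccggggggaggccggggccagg

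The DSG2 window had a GC content of 75.2% and 26 CpG dinucleotides. The DSG3 window had 42.8% and 4, the DSG1 window 48.0% and 3, and the median over all windows was 58.0%. DSC1, like DSG1 and DSG3, had few CpG dinucleotides (1), whereas the DSC2, DSC3, PKP1 and DSP windows had from 12 to 33. The CDSN window lay between these, with 7 and a GC content of 64.8%. The members higher with the DLEU1 vector had windows from GC-poor (DSG3) to GC-rich (DSP and PKP1), and that of DSG2, within 2-fold, was GC-rich too. Whether the GC content of a window is tied to the differences was not tested.

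A set of 5 short motifs was searched on both strands of the 10 member windows, DSC2 having 2 starts. The TATA box TATAAA, the AP-1 site TGANTCA and the grainyhead-like site AACNGGTT were in 0 of them. TATAAA was in 3763 of all 35116 windows, TGANTCA in 6.57% and AACNGGTT in 1.49%. The GC box was in 5 of them (both of DSC2, and those of DSG2, DSP and PKP1) and in 42.6% of all windows. The CCAAT box was in 1, that of DSC3, and in 32.0% of all windows. A match of letters is a description of the window and not a site of binding.

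Of the 3 plaque genes among the members, PKP1 and DSP were higher by more than 2-fold and PKP3 was not. PKP1, the plakophilin of suprabasal desmosomes whose loss causes skin fragility, had a signal of 297 ± 29.8 in the control culture and 1403 ± 140 in the DLEU1 culture. Its log2 level was 0.29 and 2.57, a difference of 2.28 ± 0.205 or 4.85-fold. A second PKP1 probe, which shares 49 of its bases with the first, gave 281 ± 28.3 and 1309 ± 131, or 4.78-fold. With 0.0219 between them, these overlapping probes repeat 1 measurement at other places on the array.

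PKP3, the plakophilin present in most layers of stratified epithelium, had a signal of 33875 ± 3390 in the control culture and 30039 ± 3000 in the DLEU1 culture (A_33_P3317628, chr11:404848-404907). Its log2 difference was -0.14 ± 0.204, smaller than the software error, and it became 0.14 with loess, 0.03 with quantile normalization and -0.60 with spike-in scaling. The difference of PKP1 exceeded that of PKP3 by 2.41 ± 0.289, and by 2.22 to 2.48 over the settings.

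DSP, the protein that anchors keratin filaments at every desmosome, was measured by 2 probes that do not overlap. The probe A_32_P157945 (chr6:7586582-7586641) had a signal of 22366 ± 2240 in the control culture and 56285 ± 5630 in the DLEU1 culture. Its log2 difference was 1.37 ± 0.204, or 2.58-fold, and that of the other DSP probe was 1.24 ± 0.204, or 2.37-fold, after signals of 8753 ± 875 and 20194 ± 2020. Both DSP probes were above 2-fold under the main scaling, but the difference was 0.91 with spike-in scaling, just under it. Of the members past 2-fold and detected on both arrays, DSP had the smallest difference, and the gap to DSC3 of 0.30 ± 0.288 was about the size of its software error.

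CDSN, the protein that distinguishes the corneodesmosome from the desmosome, differed most. Its probe A_23_P350396 (NM_001264, chr6:31083337-31083396, minus strand) had a signal of 3.16 ± 3.17 with the control vector, where the software had set a surrogate value, and of 1524 ± 152 with the DLEU1 vector. It was at least 110.0-fold higher. On the log2 scale this bound was 6.78. It was 4.49 with normexp and 3.97 at a minimum signal of 100, so the size, and not the direction, depended on how dim spots were treated.

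**Figure D3:**
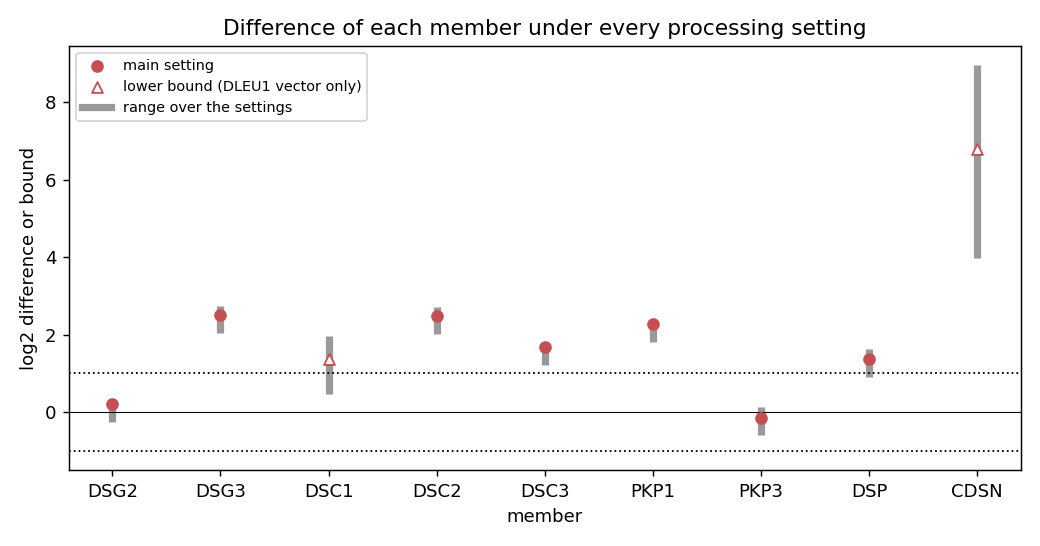
Main log2 difference of each member (filled circle), or lower bound for members detected with the DLEU1 vector only (open triangle), with the range over the settings that gave a value (grey); dotted lines mark 2-fold. DSG3, DSC2, DSC3, PKP1 and CDSN stayed above 2-fold under every setting, DSP and DSC1 reached below it, and DSG2 and PKP3 crossed 0; the upper ends of CDSN (8.95) and DSC1 (1.96) are differences without a filter on dim probes, not bounds.

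The neighbours of CDSN in 6p21 were read in the same way. PSORS1C2 was detected with the DLEU1 vector only, at least 2.45-fold higher, and PSORS1C1 differed by 0.70 and PSORS1C3 by 0.32. POU5F1 was higher by 1.22, or 2.33-fold, and another POU5F1 probe by 1.23. CCHCR1 differed by -0.93, and TCF19, a regulator expressed in dividing cells, by -3.26 or 9.61-fold lower. Of the 5 neighbours detected on both arrays POU5F1 was higher and TCF19 lower by more than 2-fold, so the genes beside CDSN differed in both directions.

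**Figure D4:**
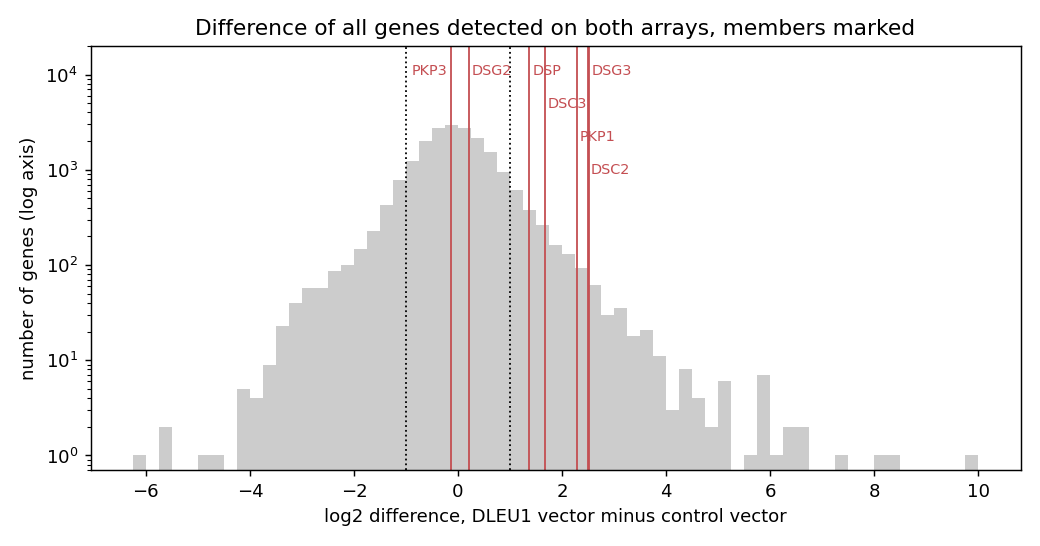
Number of genes (log axis) by log2 difference, DLEU1 vector minus control vector, for the 20246 gene names detected on both arrays, in bins of 0.25; red lines mark the 7 members detected on both arrays and dotted lines 2-fold. DSG2 and PKP3 lie in the body of the distribution, and DSP, DSC3, PKP1, DSC2 and DSG3 in its upper tail.

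Among all genes detected on both arrays, the difference of DSC2 was larger than that of 98.9%, of PKP1 than 98.5%, of DSC3 than 96.7% and of DSP than 94.8%. Those of DSG2 and PKP3 were larger than 65.9% and 46.2%. These positions do not depend on a constant scaling factor, which moves every gene alike.

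The other genes of the desmosome were taken from a list of 8. Of the 7 detected on both arrays 3 were higher by 2-fold or more and 1 (PKP4) was lower by as much, and the median difference was 0.45. Among all gene names detected on both arrays, 9.18% were higher and 9.78% lower by as much. JUP (plakoglobin), which binds the tails of desmogleins and desmocollins, had a log2 level of 4.86 and 6.45, a difference of 1.58 or close to 3-fold. PERP, a membrane protein needed for desmosome assembly in stratified epithelium, was higher by 1.21 or 2.31-fold. PPL (periplakin), a plakin of the cornified envelope and desmosome, was higher by 1.41 or 2.66-fold.

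EVPL (envoplakin), the partner of periplakin, differed by 0.45 and KAZN by 0.08. PKP2, the plakophilin of simple epithelia and heart, differed by -0.63. PKP4, an armadillo protein of adherens junctions and desmosomes, differed by -1.02 or 2.03-fold lower, while its other probes gave -0.69 and -0.91. Of the plakophilin symbols PKP1 to PKP4, only PKP1 was thus higher than 2-fold, PKP4 was 2-fold lower at its brightest probe alone, and PKP2 and PKP3 lay within 2-fold.

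Enzymes and inhibitors that act on desmosomal proteins were read beside their substrates. Of 10 listed genes 7 were detected on both arrays, with a median of 0.66, and 3 of these were higher by 2-fold or more and 0 lower by as much. The shares over all gene names detected on both arrays were 9.18% higher and 9.78% lower. KLK5, a serine protease that cuts corneodesmosomal proteins, was higher by 3.03 or 8.15-fold, and KLK7, which cuts corneodesmosin, differed by 0.66. CST6 (cystatin M/E), an inhibitor of cysteine proteases, was higher by 1.97 or 3.92-fold, and CTSD (cathepsin D) by 1.37 or 2.58-fold.

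SPINK5, which encodes LEKTI, the inhibitor of KLK5 and KLK7, was detected with the DLEU1 vector only, at least 26.2-fold higher. CTSV differed by -0.60, and KLK14 and SPINK9 were not detected on either array. ADAM10, a protease that sheds cadherins, differed by 0.55, with another probe at 0.73, and ADAM17, which also sheds desmogleins, by 0.00. Higher levels were therefore seen both for KLK5 and for SPINK5, its inhibitor.

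The adherens junction, the other cadherin junction of epithelia, was compared through 9 genes, all detected on both arrays. Their median was 0.37, 4 of them being higher by 2-fold or more and 0 lower by as much. Over all gene names detected on both arrays these shares were 9.18% and 9.78%. NECTIN4, named PVRL4 on the array, was higher by 2.72 or 6.61-fold. CDH3 (P-cadherin) was higher by 1.18 or 2.27-fold and CTNND1 (p120 catenin) by 1.14 or 2.20-fold, with another CTNND1 probe at 1.72.

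CDH1 (E-cadherin) was higher by 1.04 or 2.05-fold. Its only probe lies in the strip of the DLEU1 vector array described above, where spots were more often 4-fold lower than elsewhere. CTNNB1 differed by 0.37, with another probe at 0.12, and CTNNA1 by 0.33, with another at 0.23. AFDN (named MLLT4) differed by -0.04, while its other probes gave 0.03, 0.16 and 0.04. NECTIN1 (named PVRL1) differed by -0.14 and VCL by -0.60. Whether the members differed more than the adherens junction genes could not be tested with 1 array per vector. Spike-in scaling moves every gene alike, and with it the medians were 1.21 for the members, -0.01 for the other desmosomal genes, 0.19 for the proteases, inhibitors and sheddases and -0.09 for the adherens junction.

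**Figure D5:**
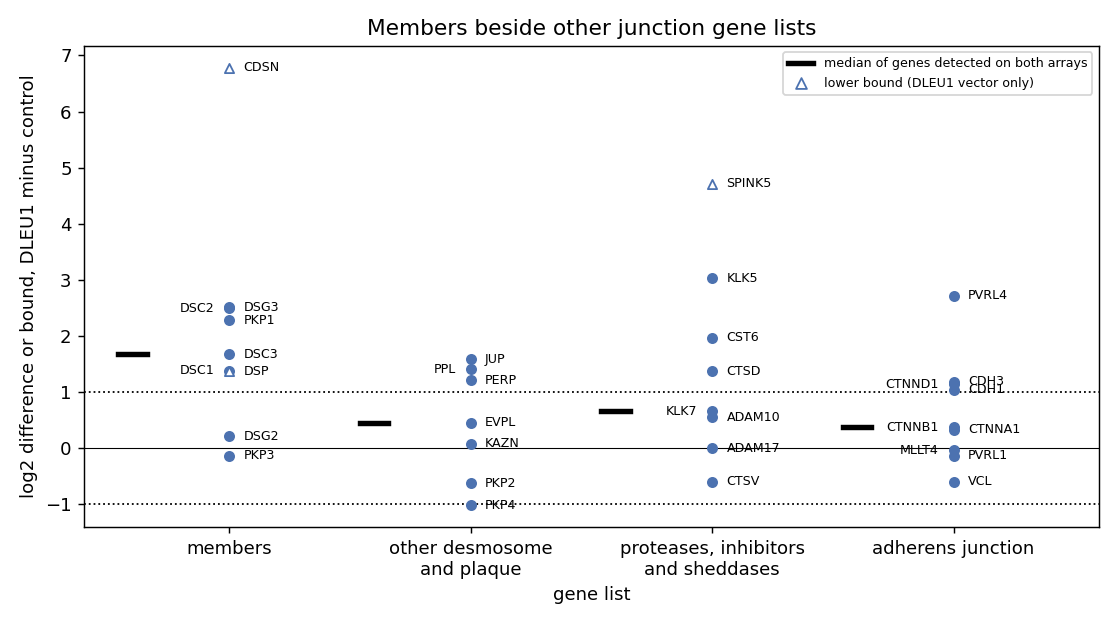
Log2 difference of the members, the other desmosome and plaque genes, the proteases, inhibitors and sheddases, and the adherens junction genes; circles are genes detected on both arrays, open triangles lower bounds, and black dashes the list medians of 1.67, 0.45, 0.66 and 0.37. Genes above the upper dotted line were at least 2-fold higher with the DLEU1 vector.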

How the data were processed

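Total RNA of 1 culture per vector was labelled with Cy3 and measured on a SurePrint G3 Human GE v3 array, and the labels gave the groups. Per the file headers the deposited intensity is the processed signal of Feature Extraction 10.7.3.1, which subtracted background, detrended each array and gave the dimmest spots a surrogate value. The deposited series table held the same intensity, rounded (deviation up to 0.497%). Neither was normalized between arrays, and the authors analysed the arrays in GeneSpring.

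Control spots and spots marked as outliers (84 and 103) were left out. The log2 processed signal was averaged over the spots of a probe and the 75th percentile of the array was subtracted (7.92 and 7.88). A gene took the value of the brightest among its probes detected on both arrays. A gene detected on 1 array only was given as a bound against the higher of its own signal and the lowest detected signal on the other array. A change was called at 2-fold. Python 3.11.15, pandas 2.3.3, statsmodels 0.14.6 (loess, span 0.3) and limma 3.58.1 (normexp, offset 50) were used. Scaling by percentile, median, quantiles and loess was tested on simulated differences in genes with a single probe detected on both arrays. Bounds for genes detected on 1 array, the choice of the brightest probe, spike-in scaling, normexp and the nearest spots were not tested so. The simulation held no variation between cultures. Precision is limited by 1 array per vector. All 10 members matched a current RefSeq symbol. The members, the gene lists and the settings were chosen with earlier results of these data known. The text names all members, DLEU1 and every gene of the short lists.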

Additional observations from a re-analysis of the deposited data

How the results depend on the processing

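A total of 15 alternatives were run for each result that could be computed, and values that moved by less than the spot SD of 0.0778, or counts within 1.5 times, are not listed. No paired analysis was possible because each vector has 1 array. Of the 7 members detected on both arrays, 5 were called higher under the main setting and 4 with spike-in scaling and at 3-fold, DSP being the one lost, and 5 under each of the other alternatives. CDSN, detected in 1 culture only, was called under each alternative, and DSC1, likewise, was not called with spike-in scaling, with normexp or at 3-fold and had no value at a minimum signal of 100. Under any alternative 0 members were called lower. The median difference of the members detected on both arrays (1.67) moved to 1.56 when arrays were scaled by their median, 1.78 by the 75th percentile of detected probes, 1.76 by quantiles, 1.79 by loess, 1.21 with spike-in scaling, 1.58 with normexp, 1.81 with no filter on dim probes (over all 10 members) and 1.77 both with probes averaged per gene and with the nearest 100 spots taken off. The DLEU1 difference (2.74) was 2.62, 2.85, 2.92, 2.97 and 2.27 with the first 5 of these in the same order, and 1.38 with its probes averaged. The share of all genes at least 2-fold higher was 4.56% and of those lower 24.1% with spike-in scaling. By construction it was 18.4% and 22.0% at 1.5-fold and 3.82% and 3.31% at 3-fold. With normexp 5.54% were higher. The median of all genes shifted by -0.11 under median scaling, by 0.11 under the 75th percentile of detected probes and with no filter on dim probes, by 0.08 under loess and by -0.46 under spike-in scaling.

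Leaving out the settings that cannot change them, 57 values of single members stayed within the spot SD of the main value and 50 left it, and no member past 2-fold changed sign. Of 65 medians of the other lists, 33 stayed within the spot SD and 32 left it. DSG2 (-0.25 with spike-in scaling) and PKP3 (0.14 with loess, 0.03 with quantile normalization) changed sign within 2-fold. The cause was not tested. Signal over background limits DSG1, DSC1 and CDSN, which were not detected in the control culture. The spike-in value is the median of 8 probes.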
